A study of Rattus norvegicus with 24 samples.

Results

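Kinesins, the light chains that some of them carry, and the alpha, beta and gamma tubulins were followed in rat thyroid glands after chronic acrylamide. The genes were taken as every non-control array probe whose gene name starts with Kif or Klc and a digit, or with Tuba, Tubb or Tubg and a digit, in the scanner files. That rule found 69 probes of 56 genes, out of 26187 genes on the array. Where a gene had several probes, the one with the highest mean stood for it. After a filter on dim probes, 45 of the 56 could be tested, among 20235 genes tested in all. They comprised 9 of 10 mitotic kinesins, 11 of 14 transport kinesins, 5 of 12 other kinesins, 4 of 4 kinesin light chains, 7 of 7 alpha tubulins, 7 of 7 beta tubulins and 2 of 2 gamma tubulins. The rule uses names and no measured value, while the choice of probe and the filter use signal. The members were chosen with earlier results of these data known.

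The samples were thyroid glands of RccHan Wistar pups, 1 gland sample per 1-colour array and 4 arrays in each of 6 groups. The groups were acrylamide and control females killed at night (10 PM), acrylamide and control males killed at night, and acrylamide and control females killed in the morning (10 AM). Acrylamide pups came from dams given 3 mg per kg body weight per day in the drinking water from gestational day 6 and drank it themselves up to postnatal day 35 ± 3. Control pups received tap water. Nothing in the labels links replicate numbers to individual pups, so each p-value reflects the scatter among these samples, which may be technical. Morning males were not analysed here.

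Kinesins are motors that use ATP to move along microtubules, which are polymers of alpha and beta tubulin started from rings that hold gamma tubulin. Transport kinesins carry vesicles and organelles, in part through light chains that bind the cargo, while mitotic kinesins build the spindle, move chromosomes and finish cell division. Mitotic kinesins are made mostly by dividing cells. In thyroid follicular cells microtubules serve the traffic of vesicles with thyroglobulin, the hormone precursor. Acrylamide reacts with thiols of proteins, and kinesins and tubulins have been proposed among its targets from work on nerve and on dividing cells. Expression arrays measure the RNA of these genes and not the proteins or their motor activity. Roles named for single genes below are background, mostly from human and mouse cells.

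Levels below are log2 of the processed signal minus the 75th percentile of the array, so 0 stands for that percentile. Levels of different genes are not set against each other, since signal depends on the probe. Differences are acrylamide minus control in log2 units with the standard error (SE) of a limma fit to all 24 arrays. The threshold for a call was 0.05 on the p adjusted by Benjamini-Hochberg across the 20235 genes, and "rose" and "fell" are kept for called genes. In these bulk glands fewer cells of a type and less RNA per cell cannot be told apart.

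Several arrays stood apart before any kinesin was considered. The share of spots well above background ran from 71.5% to 82.3% over the arrays. The median standard deviation (SD) of the 45 genes within a group was 0.53 in acrylamide morning females and 0.29 in their controls, 0.30 and 0.25 in night males, and 0.20 and 0.15 in night females. The mean of 12 thyroid follicular markers was -3.45 in acrylamide female morning replicate 1, against 1.21 to 1.98 in the other acrylamide morning arrays and 1.89 to 2.35 in morning controls. That array does not show the defining markers of the labelled tissue at the level of the rest. The mean of 12 T cell and thymocyte markers was 0.75 in acrylamide female morning replicate 2, against -4.36 to -3.50 in the other acrylamide morning arrays and -3.44 to -2.25 in morning controls. In night males 13 skeletal muscle markers averaged 1.06 in acrylamide replicate 2 and 4.70 in acrylamide replicate 4, against 6.10 and 6.83 in the other acrylamide arrays and 6.21 to 7.30 in controls. The mean of the oesophageal epithelium markers (7 of 8 tested) was 0.48, -1.82, 0.86 and -3.67 in acrylamide morning replicates 1 to 4, against -3.60 to -2.35 in morning controls, so replicates 1, 2 and 3 lay above all controls. The 3 parathyroid markers averaged -5.28, 2.16, -2.55 and 2.84 in acrylamide morning arrays, against -0.72 to 2.50 in their controls. In night males they were at -1.74 in acrylamide replicate 4, against 3.48 to 4.02 in the other acrylamide arrays and 3.46 to 4.22 in controls. The 4 pituitary markers were above every control on all 4 acrylamide arrays of night males (2.19, 3.00, -1.67 and -0.16, against -5.28 to -3.52 in controls) and on replicates 2, 3 and 4 of acrylamide night females (0.64, -1.09 and -1.37, with -5.45 in replicate 1, against -5.44 to -3.58 in controls). What part such other cells have in the acrylamide differences below was not tested. Ube1y1, the one Y-linked gene with a clear difference between the sexes here, was at -6.44 in acrylamide male night replicate 4, against -3.51 to -3.13 in the other acrylamide males and -4.16 to -3.41 in control males. The array labelled control female morning replicate 4 had -4.56 for Ube1y1, against -7.76 to -7.14 in the other morning controls, so these last 2 arrays go against their labels in this gene. Collection time is confounded with slide and scan session, sex at night with slide, and treatment at night with the array row.

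In morning females, 2 mitotic kinesins rose with acrylamide and 1 transport kinesin fell. These 3 of 45 genes stand beside 427 of all genes called in that comparison (2.11%), of which 88 were higher (0.435%) and 339 lower (1.68%). The count over all genes depended on the fit. It ran from 3 to 2130 with 1 array left out, and was 12 with the array median subtracted and 3 with array weights. With only the 8 arrays compared, limma called 0 of all genes, and 2708 had an unadjusted p under 0.05. In night females 0 of 45 genes passed in limma, as did 0% of all genes. Night males likewise had 0 of 45 in limma, with 0% of all genes called. At an unadjusted p under 0.05 there were 13 of the 45 in morning females, 2 in night females and 7 in night males, against 4836, 378 and 2756 of all genes.

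Kif2c, a kinesin without motility that removes tubulin from microtubule ends at the kinetochore, had levels of -3.79, -1.89, -3.96 and -2.92 in the 4 acrylamide morning females and of -5.42, -4.47, -4.12 and -4.22 in the 4 morning controls. Every acrylamide array lay above every control array, and acrylamide replicate 2 was the highest. Kif2c averaged -3.14 ± 0.95 with acrylamide and -4.56 ± 0.59 in controls (SD, n = 4 each). It rose by 1.42 (SE 0.37, limma adjusted p = 0.0493). The control level was low, with 3 of 4 control arrays and 4 of 4 acrylamide arrays well above background. A second probe, which overlaps the first (rn4 chromosome 5, 137474203 to 137474262 for the one used), differed by 1.11.

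Kif23, the motor of centralspindlin that bundles midzone microtubules before the daughter cells separate, had levels of -1.32, -1.22, -1.81 and -2.39 in acrylamide morning arrays and of -2.47, -2.29, -2.52 and -2.57 in their controls. Replicates 1, 2 and 3 of the acrylamide group were above all controls, and replicate 4 lay within the control range. The oesophageal epithelium markers were likewise above all controls on acrylamide replicates 1, 2 and 3 and not on replicate 4, and their part in the Kif23 value was not tested. The group means were -1.69 ± 0.53 and -2.46 ± 0.12 (SD, n = 4 each), and Kif23 rose by 0.78 (SE 0.19, limma adjusted p = 0.0413; probe on rn4 chromosome 8, 66052647 to 66052706).

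Both calls sat near the threshold. In limma the Kif2c call was lost without morning control replicate 1, 2, 3 or 4 (adjusted p = 0.112, 0.129, 0.0919 and 0.0612) and without acrylamide replicate 1 or 2 (adjusted p = 0.0924 and 0.0677), with differences of 1.00 to 1.69 over all 8 such fits. In limma the Kif23 call was lost without the same 6 arrays (adjusted p = 0.0783, 0.102, 0.105 and 0.0676 for controls, 0.161 and 0.0523 for acrylamide), with differences of 0.62 to 1.01. Leaving out any of the 16 night arrays, which share the estimate of spread, also ended the Kif2c call, and 8 of them ended the Kif23 call. Over all alternatives the adjusted p in limma ran from 0.0155 to 0.372 for Kif2c and from 0.000944 to 0.46 for Kif23. Fitted to only the 8 morning arrays, the SE was 0.49 for Kif2c and 0.27 for Kif23 (limma adjusted p = 0.372 each). The fit to all 24 arrays gave smaller SEs of 0.37 and 0.19, since it shares the spread with the night groups. Without acrylamide replicates 1 and 2 together, the arrays that stand apart in follicular and T cell markers, Kif2c differed by 1.12 (limma adjusted p = 0.315) and Kif23 by 0.37 (adjusted p = 0.46). With slide as a term the values were 1.43 for Kif2c (adjusted p = 0.0836) and 0.84 for Kif23 (adjusted p = 0.0535). With normexp background correction the differences shrank to 0.36 for Kif2c (limma adjusted p = 0.231) and 0.49 for Kif23 (adjusted p = 0.0907).

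The other 7 mitotic kinesins did not pass in morning females. For Kif18a, which damps the swing of chromosomes at the spindle equator, levels were -4.02, -1.92, -3.72 and -3.84 with acrylamide and -4.88, -4.24, -4.16 and -4.35 in controls. All 4 acrylamide arrays lay above all 4 controls, and the difference was 1.03 (SE 0.35, adjusted p = 0.0922). Kif11, which pushes the spindle poles apart, differed by 0.86 (SE 0.43). Kif15, which helps to hold the poles apart, differed by 0.82 (SE 0.49), Kif22, a chromosome-bound motor, by 0.68 (SE 0.28), and Kif20b, a motor of late cytokinesis, by 0.67 (SE 0.33). Kif20a, which brings the chromosomal passenger complex to the midzone, differed by 0.59 (SE 0.28), and Kif18b, which acts on astral microtubules, by 0.43 (SE 0.31). In each of these 6 the groups overlapped, and acrylamide replicate 2 was the highest of all 8 arrays.

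**Figure D1:**
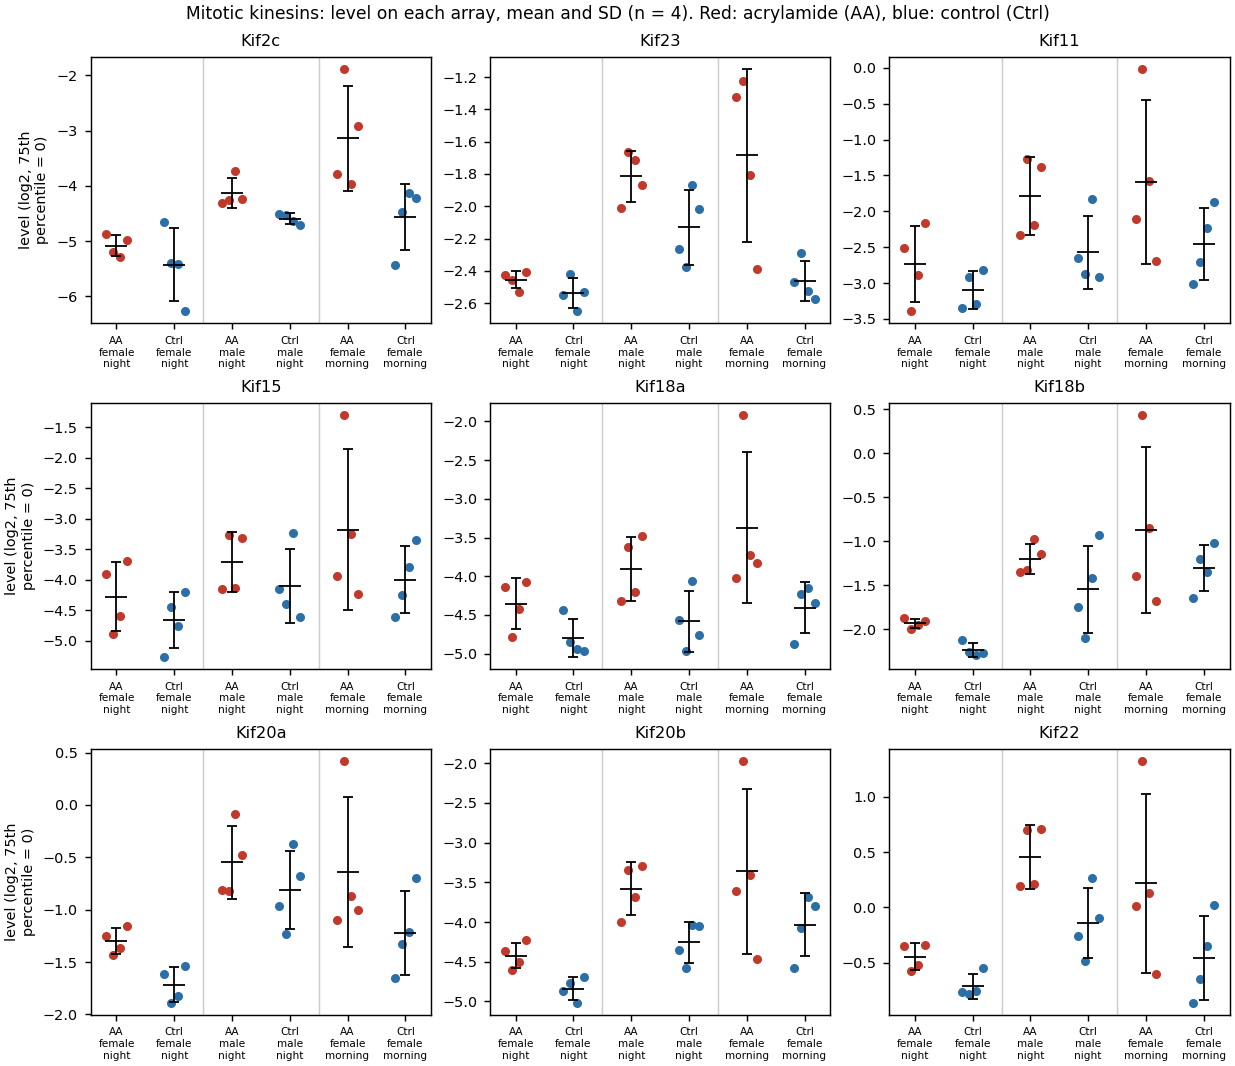
Level of the 9 tested mitotic kinesins on each of the 24 arrays (log2, array 75th percentile at 0), acrylamide in red and control in blue within each pair of groups, with mean and SD (n = 4). In morning females 1 acrylamide array, replicate 2, is the highest point of every panel, while at night the groups lie closer together.

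Differences of mitotic kinesins were positive in all 9 genes in each of the 3 acrylamide comparisons. Their median was 0.78 in morning females, where all genes had a median of -0.11 and 8169 of 20235 were positive. For night males it was 0.46, beside 0.00 for all genes with 10229 positive. In night females it was 0.36, beside 0.02 for all genes with 11277 positive. These genes are transcribed together in dividing cells, so the 9 signs are not 9 independent observations. The mean level of the 9 in acrylamide morning arrays was -2.36, -0.68, -2.15 and -2.65, against -3.24, -2.80, -2.60 and -2.43 in morning controls. Acrylamide replicate 2 was thus far above the rest, and replicate 4 was within the control range. Without replicate 2 the median difference was 0.30 with 8 of 9 positive, and without replicates 1 and 2 together it was 0.29 with 9 of 9 positive. On the slide with acrylamide replicates 2 and 3 and 3 controls, 9 of 9 differences were positive with a median of 1.42. On the slide with acrylamide replicates 1 and 4 and a single control, replicate 4, 3 of 9 were positive with a median of -0.31. That single control is the array with the Y-linked signal, and leaving it out of the fit gave 9 of 9 positive with a median of 0.84. Such a fit has no control on that slide, so it cannot address the difference within the slide.

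At night the spread and the medians were smaller. The pituitary markers were higher on most acrylamide night arrays than on any control of the same sex. Within the acrylamide groups their order was not that of the mitotic means. Acrylamide female replicate 2 had the highest pituitary mean (0.64) and the lowest mitotic mean (-3.26). Replicate 1 had the lowest pituitary mean (-5.45) and a mitotic mean of -2.86. Acrylamide male replicate 1 had a pituitary mean of 2.19 and the lowest mitotic mean (-2.57). The part of pituitary cells was not tested. In males the mean level of the 9 was -2.57, -2.10, -2.28 and -2.05 with acrylamide and -2.83, -3.06, -2.36 and -2.75 in controls. Every acrylamide array but replicate 1 lay above every control array. Kif20b had -4.00, -3.34, -3.69 and -3.29 in acrylamide males and -4.35, -4.58, -4.04 and -4.05 in control males, a difference of 0.68 (SE 0.33, adjusted p = 0.371), and Kif11 differed by 0.78 (SE 0.43, adjusted p = 0.398). Kif2c was at -4.31, -4.26, -3.73 and -4.23 in acrylamide males and at -4.50, -4.52, -4.63 and -4.71 in control males, a difference of 0.46 (SE 0.37, adjusted p = 0.555). For Kif20b and Kif2c the 4 and 4 arrays did not overlap. In night females the mean of the 9 was -2.86, -3.26, -3.12 and -2.77 with acrylamide and -3.29, -3.30, -3.44 and -3.31 in controls, so the groups did not overlap. There the arrays were apart for Kif18b (0.30, SE 0.31), Kif20a (0.41, SE 0.28) and Kif20b (0.41, SE 0.33), each with adjusted p = 1. Without acrylamide male night replicate 4, the array low in Ube1y1, the median in males was 0.49 with 9 of 9 positive.

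Counts of genes with no overlap need the same count over all genes beside them. In night females 5 of the 45 had all acrylamide arrays above all controls (3.72% of all genes) and 3 had them all below (1.73%). Among night males the counts were 4 above (2.99%) and 0 below (1.48%), and in morning females 2 above (1.87%) and 2 below (6.7%). The 11 cases found above are pairs of a gene and a comparison. Of them 7 were of mitotic kinesins, with Kif20b and Kif2c each in 2 comparisons. The other 4 were Tuba1b and Tubb4b, each in both night comparisons.

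Markers of T cells and thymocytes and of oesophageal epithelium were read beside the mitotic kinesins. In morning females the T cell markers (12 of 16 tested, 8 well above background on all acrylamide arrays and 9 on all controls) were highest in acrylamide replicate 2, the array with the highest mitotic kinesins. Among the other 7 morning arrays the order differed, since acrylamide replicates 1 and 4 had the lowest T cell means (-4.25 and -4.36). The oesophageal markers (7 tested, 6 well above background on all acrylamide morning arrays and 5 on all controls) separated acrylamide replicates 1, 2 and 3 from the controls, as did the mitotic means (-2.36, -0.68 and -2.15, against -3.24 to -2.43), and left replicate 4 (-3.67 and -2.65) outside that set. At night the oesophageal means were low in all 4 groups, from -4.64 to -3.16. At night the highest T cell mean in acrylamide females was -1.0 in replicate 3, where the mitotic mean was -3.12 and the third of the 4. In acrylamide males it was -2.30 in replicate 3, with a mitotic mean of -2.28, also the third of the 4. What part these cells have in the mitotic values was not tested.

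**Figure D2:**
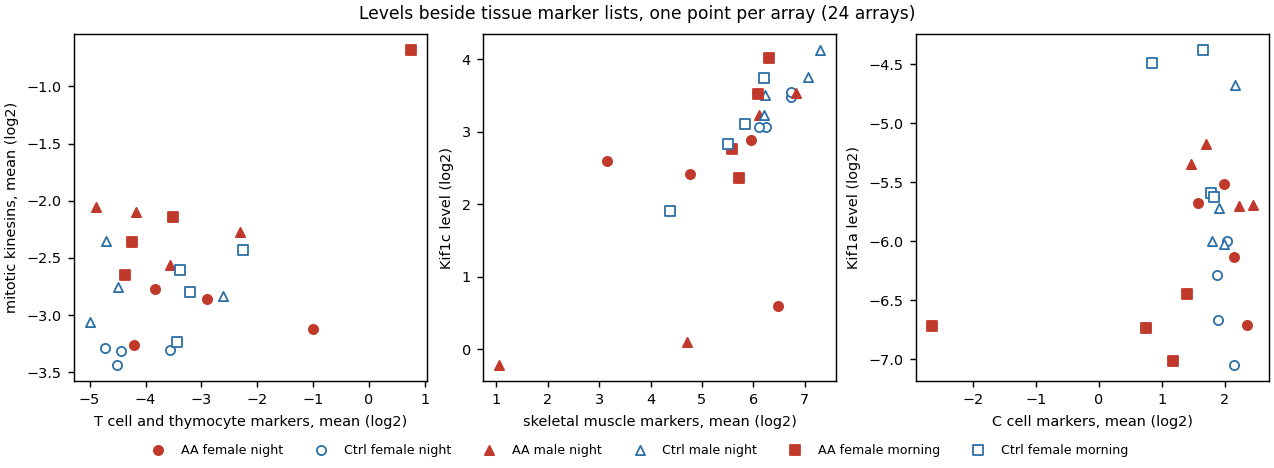
Each point is 1 of the 24 arrays, with acrylamide in filled red and control in open blue symbols. The left panel sets the mean level of 9 mitotic kinesins against 12 T cell and thymocyte markers, the middle panel Kif1c against 13 skeletal muscle markers and the right panel Kif1a against 6 C cell markers (all log2). Acrylamide female morning replicate 2 is the single point at the upper right of the left panel.

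Partners of these kinesins were read beside them. Of 27 tested genes for spindle and cytokinesis partners, 3 rose in morning females, beside 0.435% of all genes called higher there: Cenpf, a kinetochore protein (1.63, SE 0.38, limma adjusted p = 0.0409), Ccnb2, a mitotic cyclin (1.43, SE 0.36, adjusted p = 0.0439), and Incenp, a scaffold of the passenger complex (1.19, SE 0.26, adjusted p = 0.035). The list had 26 of 27 positive differences in morning females (median 0.79), 18 of 27 in night males (median 0.30) and 24 of 27 in night females (median 0.36). None of these 3 calls held with only the 8 arrays compared, where limma called 0 of all genes. At night 0 of 27 passed in either sex. This list holds the nearest working partners of the mitotic kinesins and is not independent of them. It too was chosen with earlier results of these data known.

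RefSeq promoter windows, which run from 250 bases before to 50 bases after the transcript start on the GRCr8 build, are shown for the called genes and for the tested mitotic kinesins that hold both of the searched motifs. CCAAT boxes and TTTGAA (the core of the cell cycle homology region) are known from promoters of mitotic genes. Both were searched on both strands. Matches are in capitals, and one on the opposite strand appears as its reverse complement. The windows are Kif23 (chr8:71320535-71320834, minus strand), Kif20b (chr1:241840766-241841065, plus strand), Kif22 (chr1:191080829-191081128, minus strand), Kif2c (the first of 2 windows, chr5:135899163-135899462, minus strand) and Kif1a (chr9:101094728-101095027, minus strand).
Kif23: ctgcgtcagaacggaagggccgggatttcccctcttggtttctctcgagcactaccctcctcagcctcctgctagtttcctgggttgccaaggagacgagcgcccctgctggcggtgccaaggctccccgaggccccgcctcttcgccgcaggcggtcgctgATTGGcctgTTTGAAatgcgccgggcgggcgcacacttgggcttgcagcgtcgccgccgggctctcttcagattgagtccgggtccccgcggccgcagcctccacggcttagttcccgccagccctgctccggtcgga
Kif20b: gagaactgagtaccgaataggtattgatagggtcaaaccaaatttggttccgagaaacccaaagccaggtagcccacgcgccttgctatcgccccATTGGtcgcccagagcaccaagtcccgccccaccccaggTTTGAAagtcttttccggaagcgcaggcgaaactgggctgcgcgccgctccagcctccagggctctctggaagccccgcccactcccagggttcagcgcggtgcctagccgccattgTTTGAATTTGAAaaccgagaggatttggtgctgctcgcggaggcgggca
Kif22: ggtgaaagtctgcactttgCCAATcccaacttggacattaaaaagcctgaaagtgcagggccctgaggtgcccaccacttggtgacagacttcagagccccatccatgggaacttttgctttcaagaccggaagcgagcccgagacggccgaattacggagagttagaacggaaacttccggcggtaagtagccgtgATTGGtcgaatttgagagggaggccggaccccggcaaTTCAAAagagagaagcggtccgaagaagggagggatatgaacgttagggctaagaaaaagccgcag
Kif2c: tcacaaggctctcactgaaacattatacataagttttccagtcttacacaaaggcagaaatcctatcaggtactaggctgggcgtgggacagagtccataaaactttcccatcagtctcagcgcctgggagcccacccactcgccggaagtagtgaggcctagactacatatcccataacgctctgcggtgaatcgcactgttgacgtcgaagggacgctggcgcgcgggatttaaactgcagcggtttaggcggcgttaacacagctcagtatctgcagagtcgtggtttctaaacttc
Kif1a: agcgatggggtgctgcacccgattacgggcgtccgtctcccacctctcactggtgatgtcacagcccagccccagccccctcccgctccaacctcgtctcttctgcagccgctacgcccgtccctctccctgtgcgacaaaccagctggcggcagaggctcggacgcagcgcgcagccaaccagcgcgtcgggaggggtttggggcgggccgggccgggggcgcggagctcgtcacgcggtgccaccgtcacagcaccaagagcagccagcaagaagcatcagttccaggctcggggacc
In Kif23 the CCAAT match starts 88 bases before the transcript start on the opposite strand and TTTGAA 79 bases before it. In Kif20b TTTGAA lies 116 bases before the start and at bases 1 and 7 counted from it, and CCAAT 155 bases before it on the opposite strand. Kif22 has CCAAT matches 231 and 53 bases before the start and TTTGAA 16 bases before it. None of these matches overlap each other. The Kif2c windows and the Kif1a window hold neither word.

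All 10 mitotic kinesins matched the promoter table. CCAAT was found in 6 of them, TTTGAA in 5 and both in 4 (Kif4a, Kif20b, Kif22 and Kif23). Of 27457 genes with a window, 39.6% held CCAAT, 19.4% TTTGAA and 8.0% both. Of 11 transport kinesins with a window, 3 held CCAAT and 0 TTTGAA. A match is a description of letters and not of a bound factor, and genes with several windows have more chances to match.

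Transport kinesins showed no shared direction. Their differences were positive in 5 of 11 in morning females (median -0.07), 5 of 11 in night males (median -0.08) and 6 of 11 in night females (median 0.03). One of the 11, Kif1a, a carrier of synaptic vesicle precursors in neurons, fell in morning females. Its levels were -6.72, -7.01, -6.74 and -6.45 with acrylamide and -4.49, -5.59, -5.62 and -4.38 in controls. All 4 acrylamide arrays lay below all 4 controls. The means were -6.73 ± 0.23 and -5.02 ± 0.68 (SD, n = 4 each), and the fitted difference was -1.71 (SE 0.34, limma adjusted p = 0.023; probe on rn4 chromosome 9, 92288902 to 92288961). The signal was dim: 0 of 4 acrylamide arrays and 2 of 4 control arrays were well above background. Acrylamide signals under the lowest that counts as well above background were then raised to it, which left the acrylamide mean 2.87-fold below the control mean. That control mean includes the 2 arrays not well above background, so this fold is not a lower bound.

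In limma the Kif1a call was lost without morning control replicate 1 or 2 (adjusted p = 0.0618 and 0.0719) and without acrylamide replicate 1 (adjusted p = 0.0724), with differences of -1.91 to -1.50. Without acrylamide replicates 1 and 2 together Kif1a differed by -1.58 (adjusted p = 0.226), and over all alternatives its adjusted p ran from 0.0071 to 0.372. With normexp background correction it was -0.53 (limma adjusted p = 0.0717). On both morning slides the acrylamide arrays lay below the controls, with a single control on the second. At night Kif1a had -5.52, -6.71, -5.68 and -6.14 in acrylamide females, against -7.05, -6.00, -6.67 and -6.29 in controls, with overlap. There 3 of 4 acrylamide and 0 of 4 control arrays were well above background. With control signals raised in the same way, the acrylamide mean was 1.39-fold higher (limma adjusted p = 1). That acrylamide mean includes the array not well above background, so this fold is not a lower bound either. In males Kif1a differed by 0.13 (SE 0.34). The 6 C cell markers, from the neuroendocrine cells of the gland, averaged -2.66, 1.18, 0.75 and 1.40 in acrylamide morning arrays, against 0.85, 1.79, 1.82 and 1.66 in morning controls. The 11 neuron and nerve markers tested averaged -2.66 to -1.99 with acrylamide and -2.87 to -2.24 in controls. Their part in the Kif1a value was not tested.

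Kif1c, a widely made motor for dense-core vesicles and integrins, had the largest difference of any tested kinesin or tubulin at night and did not pass. In night males it had 3.54, -0.22, 3.23 and 0.11 with acrylamide and 3.75, 3.51, 3.23 and 4.13 in controls, a difference of -1.99 (SE 0.69, adjusted p = 0.353). Acrylamide replicates 2 and 4 were low and replicates 1 and 3 lay at control levels. In night females it had 2.41, 2.59, 2.89 and 0.59 with acrylamide, against 3.48, 3.06, 3.55 and 3.06 in controls, a difference of -1.17 (SE 0.69, adjusted p = 1), with no overlap. In morning females the difference was 0.27 (SE 0.69). Muscle markers averaged 1.06 and 4.70 in the low male replicates 2 and 4, but 6.48 in female replicate 4, the lowest female array for Kif1c and the highest acrylamide female for muscle. Whether muscle content has a part in the Kif1c values was not tested.

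**Figure D3:**
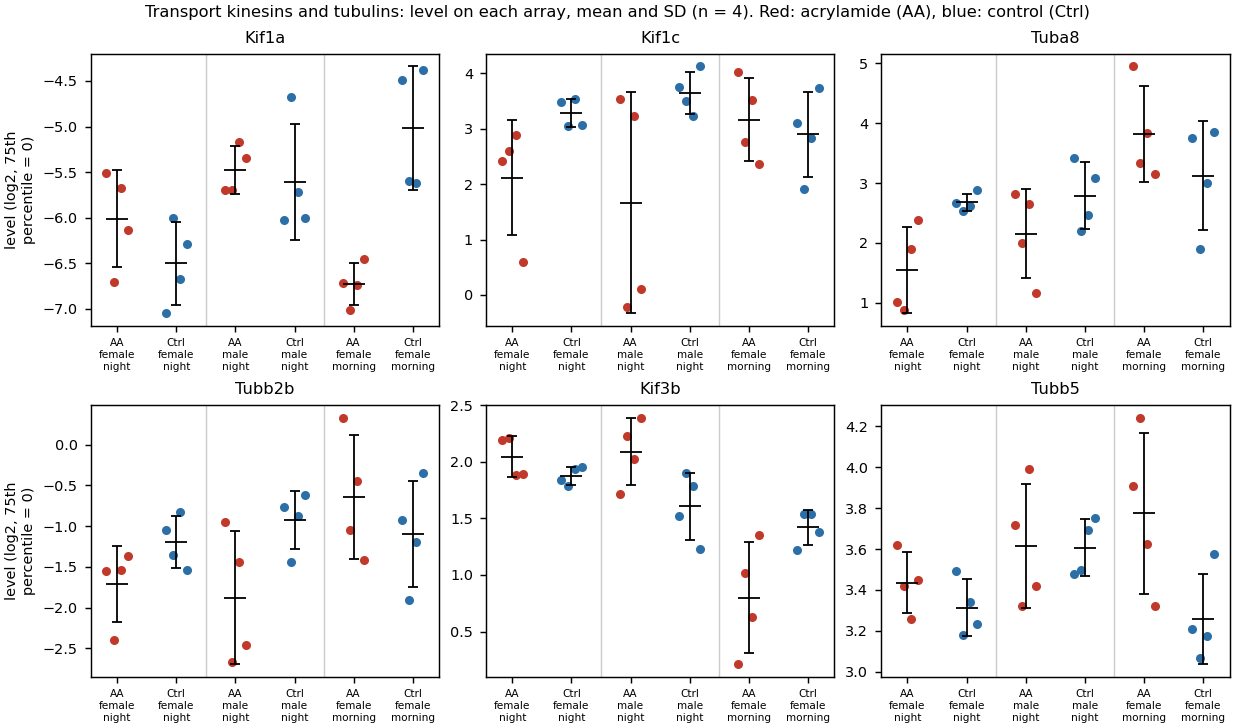
Level on each of the 24 arrays (log2, array 75th percentile at 0) of 4 transport kinesins and tubulins with large differences (Kif1a, Kif1c, Tuba8, Tubb2b) and of Kif3b and Tubb5, acrylamide in red and control in blue within each pair of groups, with mean and SD (n = 4). Kif1a is lower on all 4 acrylamide morning arrays, and Kif1c is low on 2 of the 4 acrylamide arrays of night males.

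Kif5b, the common heavy chain of conventional kinesin, was at -1.06, -2.82, -1.27 and -1.95 in acrylamide night males, against -1.21, -1.46, -1.07 and -1.14 in controls (difference -0.56, SE 0.26, adjusted p = 0.358). Replicates 2 and 4 were again the low arrays. In females it differed by 0.08 at night and 0.20 in the morning. Kif3b, a subunit of the kinesin-2 motor that supplies cilia, was at 0.21, 1.01, 0.63 and 1.35 in acrylamide morning females, against 1.22, 1.54, 1.54 and 1.38 in controls, a difference of -0.62 (SE 0.20, adjusted p = 0.0882). Kif3b in night males had the opposite sign (0.48, SE 0.20, adjusted p = 0.353). Its second probe differed by -0.29 in morning females and by -0.36 in night males, opposite there to the probe used. Kif13a, a motor of endosomes and other vesicles, was at 0.66, 0.61, 0.45 and 0.68 in acrylamide night females, against 0.82, 0.75, 0.77 and 0.69 in controls. The arrays did not overlap, by a narrow margin, and the difference was -0.16 (SE 0.20, limma adjusted p = 1). The remaining 6 transport kinesins (Kif1b, Kif3a, Kif3c, Kif13b, Kif16b and Kif21a) did not pass in any of the 3 comparisons.

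Light chains, which link conventional kinesin to its cargo, did not pass with acrylamide. Klc2, a widely made light chain, differed by 0.02 (SE 0.17) in night females, -0.01 in night males and -0.01 in morning females, each with a 95% interval within 0.39 of 0. Klc1, abundant in neurons, was at 0.47, -1.07, 0.27 and -0.78 in acrylamide night males, against 0.57, 0.15, 0.13 and 0.58 in controls (difference -0.63, SE 0.36, adjusted p = 0.409). In morning females it was at 1.50, -0.31, -0.73 and 0.54 with acrylamide and at -0.37, -0.90, -0.51 and -0.72 in controls (difference 0.88, SE 0.36, adjusted p = 0.153). Acrylamide replicate 1, the array with the low follicular marker mean, was the highest. Klc4 was at -0.81, -1.84, -0.27 and -1.72 in acrylamide night males, against -0.28, -0.34, -0.47 and -0.25 in controls, a difference of -0.83 (SE 0.30, adjusted p = 0.353). Klc1, Klc4, Kif1c and Kif5b therefore share acrylamide male replicates 2 and 4 as their low arrays. Klc3, best known from sperm cells, differed by -0.26, 0.01 and -0.06 in night females, night males and morning females.

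At night Tuba1b and Tubb4b, tubulins that most cells make, had every acrylamide array above every control array in both sexes, and neither was called. The pituitary markers were also above all controls on all 4 acrylamide arrays of night males and on 3 of the 4 of night females. The remaining array, acrylamide female replicate 1 (pituitary mean -5.45), had the highest Tuba1b of the night females (5.75) and Tubb4b at 6.22. The part of pituitary cells was not tested. Tuba1b, a widely made alpha tubulin, was at 5.75, 5.57, 5.26 and 5.39 in acrylamide night females, against 5.21, 5.16, 5.05 and 5.25 in controls (difference 0.33, SE 0.21, adjusted p = 1). In males it was at 5.62, 5.72, 5.53 and 5.58 with acrylamide and at 5.37, 5.38, 5.45 and 5.25 in controls (difference 0.25, SE 0.21, adjusted p = 0.565). Tubb4b, the beta tubulin of many dividing and ciliated cells, was at 6.22, 5.99, 5.85 and 6.27 in acrylamide night females, against 5.65, 5.76, 5.72 and 5.8 in controls, and 6.46, 6.26, 6.47 and 6.25 in acrylamide males, against 5.96, 6.05, 6.01 and 6.05 in controls. Its differences were 0.35 (SE 0.16, adjusted p = 1) and 0.34 (SE 0.16, adjusted p = 0.357). In the morning the differences were -0.21 (SE 0.21) for Tuba1b and 0.05 (SE 0.16) for Tubb4b, with overlap in both. The second Tuba1b probe differed by 0.22, 0.10 and 0.06 in night females, night males and morning females, opposite in sign to the probe used in the last. At night all acrylamide arrays lie in 1 array row and all controls in another, so treatment and row cannot be told apart there.

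Tuba8, an alpha tubulin prominent in striated muscle and testis, was at 1.01, 0.88, 1.89 and 2.39 in acrylamide night females, against 2.67, 2.54, 2.62 and 2.88 in controls. The groups did not overlap, and the difference was -1.13 (SE 0.46, adjusted p = 1). It differed by -0.64 (SE 0.46) in night males and by 0.69 (SE 0.46) in morning females, where acrylamide replicate 1 was the highest at 4.95. Acrylamide replicates 1 and 2 of night females, the lowest for Tuba8, were also lowest for the muscle markers, at 4.78 and 3.15. The other 2 acrylamide arrays had muscle means of 5.95 and 6.48, against 6.11 to 6.74 in controls. The part of muscle in these values was not tested. Tuba4a, also rich in muscle, differed by -0.58, -0.60 and 0.64 in night females, night males and morning females (SE 0.39 each). Tuba3a, an alpha tubulin known from testis, differed by 0.14, 0.35 and -0.35, and Tuba1a, the main alpha tubulin of young neurons, by -0.07, 0.01 and -0.27.

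Among beta tubulins Tubb2b, known for its role in neuronal migration, was at -0.95, -2.66, -1.44 and -2.46 in acrylamide night males, against -0.76, -1.44, -0.88 and -0.62 in controls (difference -0.95, SE 0.40, adjusted p = 0.353). Replicates 2 and 4 were once more the low arrays. Tubb5, the beta tubulin of most cell types, was at 3.91, 4.24, 3.62 and 3.32 in acrylamide morning females, against 3.21, 3.07, 3.18 and 3.58 in controls (difference 0.52, SE 0.18, adjusted p = 0.103). It passed when acrylamide replicate 4 was left out (0.67). At night it differed by 0.12 in females and 0.01 in males. Tubb6 differed by 0.74 (SE 0.27, adjusted p = 0.116) in morning females and by -0.30 and -0.46 in night females and night males. The beta tubulins were positive in 6 of 7 in morning females, 3 of 7 in night males and 2 of 7 in night females, with medians of 0.21, -0.25 and -0.28.

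Gamma tubulin 1 (Tubg1), which starts microtubules at the centrosome, varied little. It had 2.42, 2.22, 2.15 and 2.29 in acrylamide night females, against 2.15, 2.07, 2.27 and 2.16 in controls, and differed by 0.11, 0.03 and 0.03 in night females, night males and morning females (SE 0.12 each). Tubg2, its close copy with high levels in brain, was at -3.14, -2.72, -2.24 and -2.29 in acrylamide morning females and at -2.24, -2.29, -1.44 and -2.03 in controls (difference -0.59, SE 0.22, adjusted p = 0.12). At night it differed by -0.04 in females and 0.26 in males.

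Of the other kinesins, Kif26a, an atypical kinesin without motor activity, was at -1.96, -1.84, -1.49 and -1.99 in acrylamide morning females, against -1.46, -1.17, -1.48 and -1.44 in controls. All 4 acrylamide arrays lay below all controls, by a narrow margin at acrylamide replicate 3, and the difference was -0.43 (SE 0.14, adjusted p = 0.0901). Leaving out acrylamide replicate 3 brought it past the threshold at -0.54. At night it differed by 0.00 in females and 0.10 in males. Kif7, a regulator of Hedgehog signals at the tip of the cilium, and Kif12, best known from kidney and liver, did not pass, with differences of 0.10 and -0.42 in night females, -0.32 and 0.07 in night males and -0.24 and -0.34 in morning females. Kif2a, a depolymerising relative of Kif2c, differed by -0.01, 0.33 and 0.56 in night females, night males and morning females. Kif9, a kinesin of motile cilia and sperm tails, differed by 0.31 in night females and -0.06 in night males, and in the morning 1 of 4 acrylamide and 0 of 4 control arrays were well above background, so no fold was given.

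The 11 genes that failed the filter were Kif4a, Kif4b, Kif5a, Kif5c, Kif6, Kif14, Kif2b, Kif21b, Kif24, Kif26b and Kif27, of which RefSeq lists Kif4b as a pseudogene. Kif4a, a chromosome-bound motor of the mitotic set, was well above background on 2 arrays, both of acrylamide morning females. It was at -7.06, -5.99, -6.34 and -7.29 there, against -6.97, -7.56, -7.19 and -6.80 in controls, and no fold could be given. Kif5a and Kif5c, the neuronal heavy chains of conventional kinesin, were well above background on 1 and 2 of the 24 arrays. Kif21b, known from neurons and immune cells, was so on 7. Kif14 and Kif24 were so on 0.

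**Figure D4:**
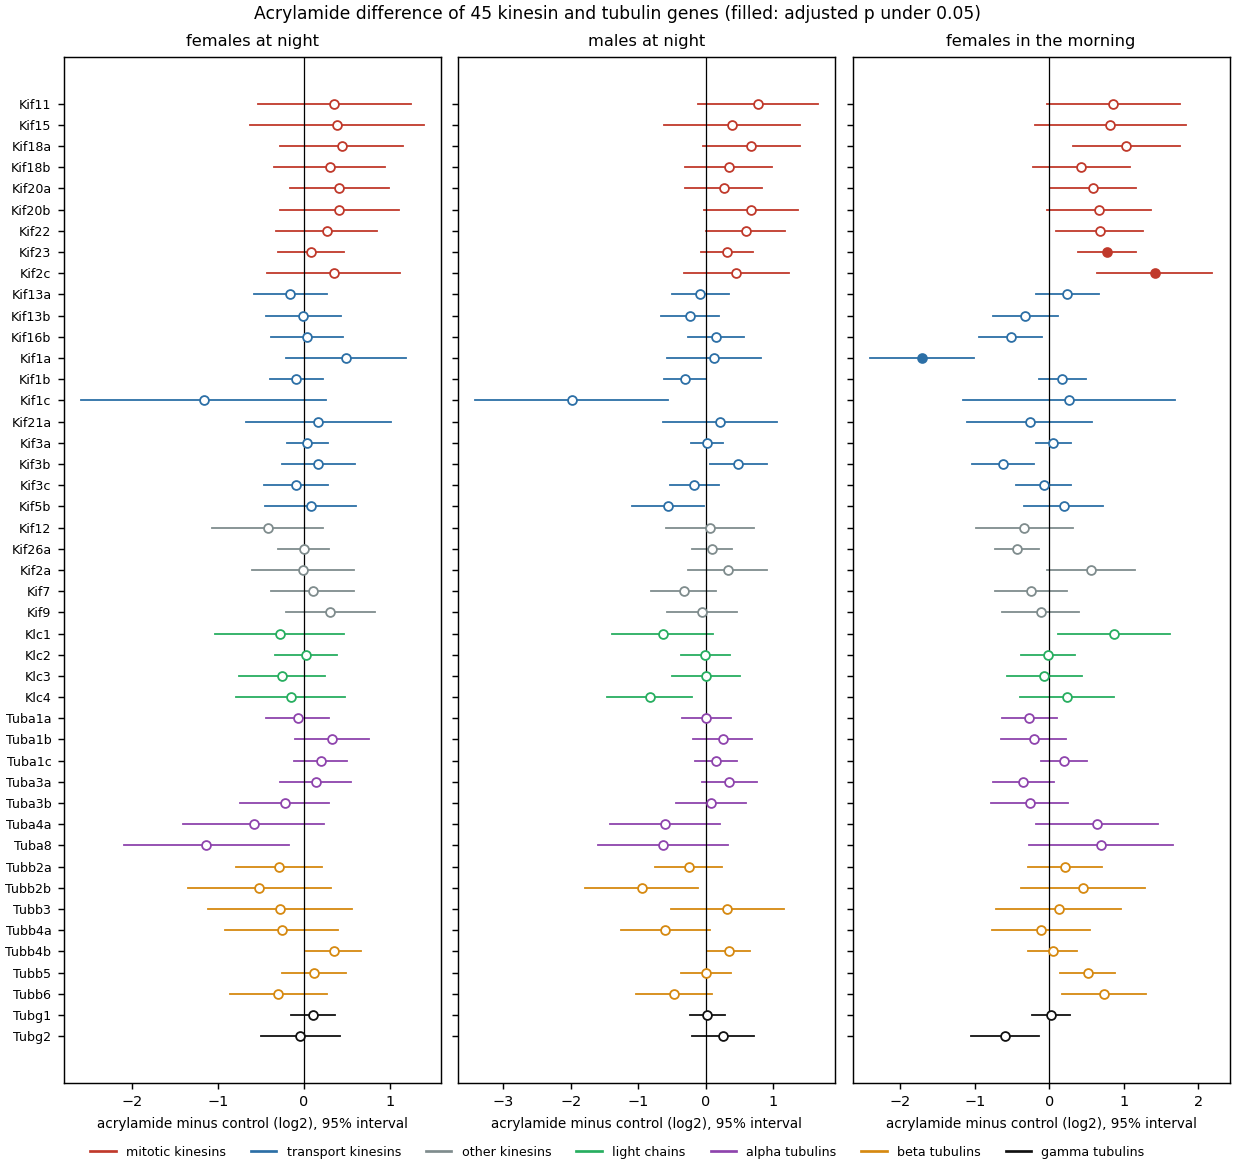
Acrylamide minus control difference (log2) with its 95% interval for the 45 tested genes in night females, night males and morning females, coloured by class. Filled points mark the 3 genes called by limma, and the mitotic kinesins at the top all lie right of 0. The horizontal scales differ between the panels.

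Other parts of the microtubule system were read from lists. Of 24 dynein and dynactin genes, the motor that runs the opposite way, 0 passed in any acrylamide comparison. The 2 with the strongest evidence in morning females were Actr10, a dynactin subunit (0.71, SE 0.24, adjusted p = 0.0947), and Bicd1, an adaptor (-0.85, SE 0.30, adjusted p = 0.102). Of 14 kinesin cargo adaptors 0 passed; Clstn1, which binds light chains, differed by -1.72 in night males (SE 0.62, adjusted p = 0.353), and Rhot1, which ties kinesin to mitochondria, by 0.80 in morning females (SE 0.27, adjusted p = 0.0971). Among 29 microtubule-associated proteins 1 passed: Map6, which stabilises microtubules, fell by 0.65 in morning females (SE 0.17, limma adjusted p = 0.049), beside 1.68% of all genes called lower there. This call too was absent with only the 8 arrays compared. Clasp1, a plus-end protein, differed by 1.1 there (SE 0.30, adjusted p = 0.0526). In night males Tppp differed by -1.20 (SE 0.32) and Stmn2, a neuronal stathmin, by 1.02 (SE 0.34). Of 25 genes of tubulin folding and modification 0 passed; Tbcb, a tubulin-folding cofactor, differed by 0.61 in males (SE 0.17, adjusted p = 0.353) and 0.32 in night females, and Ttll5, a polyglutamylase, by -0.67 in morning females (SE 0.20, adjusted p = 0.0764). Of 12 genes of the gamma tubulin ring and rarer tubulins 0 passed; Tubgcp3, a ring subunit, differed by 0.82 in females (SE 0.40) and 0.70 in night males.

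Whether the response differed between the sexes or times was tested directly. For the difference of the acrylamide effects by sex at night, males minus females, limma called 0 of 45, and 0% of all genes; 0 of 45 and 445 of all genes had an unadjusted p under 0.05. The values ran from -0.82 for Kif1c (SE 0.97) to 0.60 for Tubb3 (SE 0.57). By time in females, night minus morning, 0 of 45 were called and 0% of all genes; 8 of 45 and 3304 of all genes had an unadjusted p under 0.05. Kif1a stood at 2.20 (SE 0.48, adjusted p = 0.223), a fitted value that rests, at each time, on a group with no array well above background, Tuba8 at -1.83 (SE 0.66, adjusted p = 0.231) and Kif23 at -0.70 (SE 0.26, adjusted p = 0.232). The Kif1a and Kif23 values passed when acrylamide female morning replicate 4 was left out. The fall of Kif1a and the rises of Kif2c and Kif23 are therefore not shown to differ between morning and night. For the mean of the 3 acrylamide differences 0 of 45 passed, beside 1 of all genes (0.00494%); 10 of 45 and 1350 of all genes had an unadjusted p under 0.05. Of those 10, 7 were mitotic kinesins, with Kif2c at 0.74 (SE 0.21, adjusted p = 0.502), Kif18a at 0.72 (SE 0.20) and Kif23 at 0.39 (SE 0.11, adjusted p = 0.46). Kif23 passed without acrylamide female morning replicate 4.

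Control females differed strongly between night and morning, as did about as large a share of all genes. Of the 45, 7 were higher and 12 lower at night, beside 9852 of all genes (48.7%), 4222 of them higher (20.9%) and 5630 lower (27.8%). Time is confounded with slide and scan session here, so time and slide cannot be told apart. Tubb4a, a beta tubulin of brain, was lowest at night relative to morning: 1.89, 1.86, 1.48 and 1.91 at night, against 4.25, 4.85, 4.47 and 4.67 in the morning (difference -2.78, SE 0.32, limma adjusted p = 3.25e-07). Kif12 (-2.20, SE 0.31), Tuba3b (-1.92, SE 0.25), Kif3c (-1.41, SE 0.18) and Kif13b (-1.33, SE 0.21) were also lower at night. Kif1a was lower too (limma adjusted p = 0.00103), with 0 of 4 night and 2 of 4 morning control arrays well above background. With night signals raised to the lowest that counts as well above background, the Kif1a fold was 2.75. It is not a lower bound, since the morning mean includes arrays not well above background. Klc1 (0.89, SE 0.36), Klc4 (0.86, SE 0.30) and Kif16b (0.80, SE 0.20) were among those higher. Kif9 was higher at night by at least 2.1-fold (limma adjusted p = 0.000149), with 4 of 4 night and 0 of 4 morning control arrays well above background. The mitotic kinesins were negative in 9 of 9 (median -0.64), and 1 of them passed, Kif18b (-0.93, SE 0.31, adjusted p = 0.0168).

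Between control males and control females at night 0 of 45 passed in limma, beside 2 of all genes called (0.00988%); 6 of 45 and 330 of all genes had an unadjusted p under 0.05. The mitotic kinesins were positive, males minus females, in 9 of 9 (median 0.57, all genes 0.00). Kif20a was at -0.97, -1.24, -0.37 and -0.68 in control males and at -1.61, -1.89, -1.82 and -1.54 in control females, a difference of 0.90 (SE 0.28, adjusted p = 1). The male and female arrays of Kif20a did not overlap, and sex cannot be told apart from slide. The mitotic median of 0.57 between these control groups was above the acrylamide medians at night (0.46 in males and 0.36 in females).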

How the data were processed

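Total RNA of 24 thyroid gland samples was measured on 1-colour Agilent rat arrays. The intensity values were deposited by the authors as scanner output of Agilent Feature Extraction 10.1.1.1, per the file headers, with background subtracted, a correction for position on the array and no scaling between arrays; probe positions are on rn4. A deposited log2 table of the same arrays holds the same signals, centred by the authors on each array's median of 0, and served as an alternative. Here control spots and outlier spots were left out, replicate spots were averaged in log2, and the 75th percentile of each array was subtracted. Probes well above background on at least 3 of 4 arrays of at least 1 group were kept (23416 of 30367), with the highest-mean probe for each gene. A limma fit (version 3.58.1, R 4.3.3) with 6 group means and 18 residual degrees of freedom gave all differences, with Benjamini-Hochberg adjustment over 20235 genes and a threshold of 0.05. It was also run on simulated data that gave each gene the same spread in all groups, with no arrays that stand apart. Spread differs between the groups here, so that run does not check the shared estimate of spread. Probes were named through RefSeq by accession (18145), symbol (2877) or synonym (617, Kif4a among them, which the array calls Kif4), and 8728 kept the array's name. No exon annotation of rn4 was used. Genes given with values were those called, the mitotic kinesins, those whose groups did not overlap and the leading ones of each class. Some further members, such as Kif5b, Kif3b, Tuba4a, Tubb6 and Kif2a, were given with values outside that rule. The members and lists were chosen with earlier results of these data known. Replicate numbers were checked for pairing: of 12 pairs of same-numbered arrays 3 correlated over 0.1, so no pairing was used. The number of arrays limits the precision.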

Additional observations from a re-analysis of the deposited data

Results flagged for a closer look

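Single arrays stood far from the other 3 of their group in 6 of 156 checks over 26 genes, by Dixon's ratio of gap to range above 0.829, which chance passes in about 1 of 20 groups. Acrylamide morning female replicate 2, the array with the highest T cell markers, was high for Kif18a (-1.92, against -4.02 to -3.72 in the other acrylamide arrays) and for Kif20a (0.42, against -1.10 to -0.87). Acrylamide night male replicate 3 was high for Kif2c (-3.73, against -4.31 to -4.23). Among controls, night female replicate 4 was high for Kif22 (-0.55, against -0.79 to -0.75), morning female replicate 2 for Kif26a (-1.17, against -1.47 to -1.44) and morning female replicate 4, the array with Y-linked signal, for Kif7 (-3.14, against -3.45 to -3.43).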

How the results depend on the processing

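The 3 calls in morning females depended on the processing. No call (0) remained with normexp background correction, with the array median subtracted, in the deposited log2 table, with array weights, without acrylamide replicates 1 and 2 together, or with only the arrays compared, while 1 (Kif1a) remained with no filter on dim probes and 1 (Kif1a) with slide as a term. Leaving out 1 array at a time gave 0 to 9 calls there, the 9 without acrylamide replicate 4. The same left-out fits gave 0 to 1 for the mean of the acrylamide differences, 0 to 2 for the difference by time and 12 to 21, beside 19 with all arrays, for night against morning in control females. With slide as a term that last comparison had 12 calls. No slide holds both night and morning arrays, so that fit cannot adjust night against morning for slide. With array weights 1 gene (Kif20a) differed between control males and females. With a replicate block the calls were 2 in morning females (Kif2c lost, limma adjusted p = 0.0595) and 18 for night against morning, and the block changed no other count. The directions of the 3 calls in morning females held in every alternative run. Directions of genes called in other comparisons or in the partner lists were not followed through the alternatives. Of 1534 single-gene values 1426 kept their sign and their side of the threshold, 65 changed sign without a call, 5 gained a call and 38 lost one. Sizes were not compared in this count. All 38 losses were of Kif2c, Kif23 and Kif1a, the only genes in it with a call to lose. The large total therefore does not describe how stable those 3 calls were. Mitotic medians stayed above 0 in every alternative, from 0.29 to 1.04 in morning females. Subtracting the array median shifted the median of all genes in night males to 0.18, with 0.63 for the mitotic kinesins. The cause of these changes was not tested. Dim probes such as Kif1a and Kif2c are limited by signal over background.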
